A study of Mus musculus with 18 samples.

Results

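The aminoacyl-tRNA synthetases are the enzymes that load each amino acid onto its transfer RNA. Their genes were taken from a table of 14419 genes by their symbols, as all rows with a capital letter followed by "ars" or "ars2", together with Farsa, Farsb and Eprs. That rule found 37 genes. Of these, 36 are described together, and Lars2, the mitochondrial leucine enzyme, is described apart because its row may hold reads of mitochondrial ribosomal RNA. The 36 genes were 8 enzymes that sit in the cytosolic multisynthetase complex, 12 other cytosolic enzymes and 16 mitochondrial enzymes.

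The data are RNA-seq profiles of haematopoietic stem and progenitor cells, sorted from marrow. The donors were C57BL/6 mice, adult and male. Each population was compared after tamoxifen, a selective oestrogen receptor modulator, with the same population after corn oil, the vehicle. The groups were MPP tamoxifen and MPP oil (multipotent progenitors, 1 week of treatment), LT tamoxifen and LT oil (long-term stem cells, 2 weeks), and ST tamoxifen and ST oil (short-term stem cells, 2 weeks), with 3 libraries each and 18 in all. The design text calls the 3 libraries biological replicates. The sources used here do not state whether a library came from 1 mouse, nor how the cells were gated. No allele or transgene is named for any group, and treatment time and population cannot be told apart wherever MPPs are set against LT or ST cells.

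Each synthetase recognises an amino acid and the transfer RNAs that decode it. In animal cells, cytosolic and mitochondrial protein synthesis mostly use separate sets of these enzymes, all encoded in the nucleus. Gars and Kars, the glycine and lysine enzymes, are exceptions, since each gene serves both compartments. Several cytosolic enzymes are held together with scaffold proteins in the multisynthetase complex, and Eprs joins the glutamate and proline activities in 1 chain. When amino acids run short, the kinase Gcn2 and the transcription factor ATF4 raise a number of the cytosolic synthetase genes, together with amino acid transporters and biosynthetic enzymes, through promoter elements that bind ATF4 with C/EBP proteins. Haematopoietic stem cells of the mouse are known for a low rate of protein synthesis.

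The core of that response element was looked for in the promoters, because it is a sequence through which several of these genes are known to be raised together. The letters searched were TGATGNAA on both strands, in RefSeq windows of build GRCm38.p6 that run from 250 bases before to 50 bases after each gene's start. Of the 37 genes, 27 matched a promoter by symbol or synonym, 13 cytosolic and 14 mitochondrial, with Lars2 among them. Those not matched include Cars, Hars, Hars2, Lars, Nars, Pars2, Rars, Vars and Wars. The element was present in 5 of the 27 (18.5%), against 1219 of all 27025 genes with a promoter (4.51%). All 5 were cytosolic: Yars, Gars, Aars, Iars and Tars, the enzymes for tyrosine, glycine, alanine, isoleucine and threonine. The searched promoters of Dars, Eprs, Farsa, Farsb, Kars, Mars, Qars and Sars held none. None of the 14 mitochondrial promoters held it either. At the share over all genes few matches are due among 14 promoters, so the classes are not set apart by this. Asns, asparagine synthetase, whose promoter element is the best studied of the kind, held 1 match. A match describes these letters only and is no binding site.

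The windows lie at chr4:129189866-129189922 (Yars, plus strand), chr6:55037931-55038018 (Gars, plus strand), chr8:111033811-111033861 (Aars, plus strand), chr13:49682097-49682149 (Iars, plus strand) and chr15:11399639-11399713 (Tars, minus strand) of GRCm38.p6. They are written 5′ to 3′ along the gene and end no more than 20 bases after the start site. Capitals mark the element, which Yars carries in the direction of the gene and the other 4 on the opposite strand. Aars held 2 matches, of which the one nearer the start is shown.
Yars: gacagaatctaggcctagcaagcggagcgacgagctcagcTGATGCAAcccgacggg
Gars: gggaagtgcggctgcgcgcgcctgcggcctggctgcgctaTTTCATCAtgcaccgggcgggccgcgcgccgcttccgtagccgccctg
Aars: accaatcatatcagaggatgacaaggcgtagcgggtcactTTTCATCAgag
Iars: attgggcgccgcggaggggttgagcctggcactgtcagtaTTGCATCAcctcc
Tars: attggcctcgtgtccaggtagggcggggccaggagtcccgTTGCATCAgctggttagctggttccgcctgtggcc
The element began 30 bases before the start in Gars and 15 before it in Tars, and at positions 4, 8 and 10 of the transcribed sequence in Yars, Iars and Aars.

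Depth and purity were read before the comparisons. Libraries held 2728800 to 5279821 reads in listed genes, and a single synthetase drew between 11 reads (Pars2) and 1628 reads (Eprs) in a library. The multipotent progenitor markers ran in the order of the labels, and the long-term stem cell markers were highest in LT cells but lower in ST oil than in MPP oil. Levels are given as normalised CPM, which are reads that the authors scaled by a constant for each library. The sources used here do not state how that constant was set. The summed level of 10 long-term stem cell markers was 2312 to 2617 normalised CPM in MPP oil. It was 1742 to 2166 in ST oil and 3642 to 3957 in LT oil. The 8 multipotent progenitor markers summed to 2879 to 3297 in MPP oil, 1956 to 2311 in ST oil and 362 to 535 in LT oil. LT tamoxifen library A stood apart: the share of mitochondrial ribosomal RNA was 25.5% there, with 17.7% in library B, 18.7% in library C and 18.2% to 18.7% over the LT oil libraries.

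In ST cells after 2 weeks of tamoxifen, transcripts of 12 of the 20 cytosolic synthetases were higher, and no mitochondrial one was called. Of the 36 genes, 12 rose and none fell by limma at an adjusted p under 0.05 (Benjamini-Hochberg over all 14419 genes). Over all genes, 6.01% rose and 3.6% fell in this comparison. The 12 were 7 of the 8 complex enzymes, 5 of the 12 other cytosolic enzymes and none of the 16 mitochondrial enzymes. Gars and Kars, which serve both compartments, are counted as cytosolic and were among the 12. The median log2 fold change was 0.58 in the complex, 0.48 in the other cytosolic enzymes and 0.08 in the mitochondrial enzymes, beside 0.01 over all genes. An unadjusted p under 0.05 was reached by 16 of the 36 and by 25.1% of all genes. All ST tamoxifen values lay above all ST oil values for 16 of the 36 genes and all below for 1, where 14.8% and 12.2% of all genes did so. The libraries are bulk, so a change in RNA per cell and a change in the mix of cells cannot be told apart.

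Among the complex enzymes, Iars, which charges isoleucine, had 156, 147 and 169.9 normalised CPM in ST tamoxifen libraries A, B and C, against 93.0, 97.6 and 90.7 in ST oil. The groups lay far apart, and Iars had the smallest p of the family, with a log2 fold change of 0.74 (SE 0.13, adjusted p = 0.000877). A processed pseudogene, Gm4849, is 96.01% identical to Iars over 1656 bases in GENCODE M21, and reads of the pair may be split. Kars, for lysine, had 144, 120.1 and 129 in ST tamoxifen, against 64.3, 93.3 and 85.2 in ST oil (log2 fold change 0.70, SE 0.14, adjusted p = 0.00281). Eprs, for glutamate and proline, had 253, 312 and 324 in ST tamoxifen and 182, 181 and 216 in ST oil (0.61, SE 0.14, adjusted p = 0.00552). In all 3 genes every tamoxifen library exceeded every oil library. Mars, for methionine, had 74.3, 59.3 and 54.8 in ST tamoxifen, against 37.7, 37.3 and 45.6 in ST oil (0.63, adjusted p = 0.0111). Its exons overlap those of Ddit3 on the other strand by 68 bases in GENCODE M21. The sources used here do not state whether counting used strand, so reads of the pair cannot be told apart. The same holds for the opposite-strand overlaps named below. It also holds, among others, for Farsb (248 bases with Sgpp2), Cars2 (422 with Naxd), Nars2 (284 with C230038L03Rik) and Yars (30 with C77080).

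Lars, Rars and Dars, for leucine, arginine and aspartate, rose by less. Lars had 106, 91.6 and 95.4 normalised CPM in ST tamoxifen and 62.0, 65.4 and 70.5 in ST oil (log2 fold change 0.56, adjusted p = 0.0162). Rars had 106, 119 and 111 in ST tamoxifen and 71.9, 74.4 and 90.1 in ST oil (0.50, adjusted p = 0.0209). Dars was the called gene whose groups overlapped, with 110.4, 160.4 and 179.9 in ST tamoxifen and 89.0, 118 and 108 in ST oil (0.49, adjusted p = 0.0375). Qars, for glutamine, was the complex enzyme without a call, at 74.3, 57.3 and 65.6 in ST tamoxifen and 44.6, 57.2 and 60.2 in ST oil (0.28, SE 0.15, adjusted p = 0.251). The 3 scaffold proteins of the complex, Aimp1, Aimp2 and Eef1e1, had no call either, with a median log2 fold change of -0.09.

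Outside the complex, Gars had the largest log2 fold change of the family. Its values were 96.3, 72.1 and 70.0 normalised CPM in ST tamoxifen, against 36.04, 45.6 and 55.3 in ST oil, a log2 fold change of 0.79 (SE 0.16, adjusted p = 0.00265). Nars, for asparagine, had 145, 152 and 183 in ST tamoxifen and 89.0, 101 and 119 in ST oil (0.63, adjusted p = 0.00372). Yars had 56.2, 58.7 and 62.8 in ST tamoxifen and 38.0, 36.6 and 35.6 in ST oil (0.67, adjusted p = 0.0153), and the spread within each group was small beside the gap. Wars, the tryptophan enzyme, had 49.0, 51.6 and 43.3 in ST tamoxifen and 30.8, 26.3 and 38.8 in ST oil (0.58, adjusted p = 0.0253). Tars had 54.3, 58.1 and 60.5 in ST tamoxifen and 42.6, 35.6 and 40.9 in ST oil (0.53, adjusted p = 0.0452). Its groups did not overlap, but the call rested just inside the threshold and was kept in 10 of 30 alternative analyses.

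The remaining cytosolic enzymes had no call. Aars had 72.4, 61.6 and 54.8 normalised CPM in ST tamoxifen and 46.2, 44.9 and 40.6 in ST oil, with groups apart and an adjusted p of 0.0568 (log2 fold change 0.50); its exons hold those of Exosc6 on the same strand over 1326 bases. Hars, for histidine, and Farsb, a subunit of the phenylalanine enzyme, also had groups that did not overlap (0.45 and 0.34, adjusted p = 0.092 and 0.0884). Sars, Cars and Vars, for serine, cysteine and valine, had log2 fold changes of 0.38, 0.27 and 0.27. Farsa, the partner subunit of Farsb, was the cytosolic gene with an estimate below 0, at 58.6, 60.7 and 45.8 in ST tamoxifen and 59.7, 67.4 and 50.6 in ST oil (-0.11, adjusted p = 0.882; -0.21 to 0.02 over the alternatives).

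**Figure D1:**
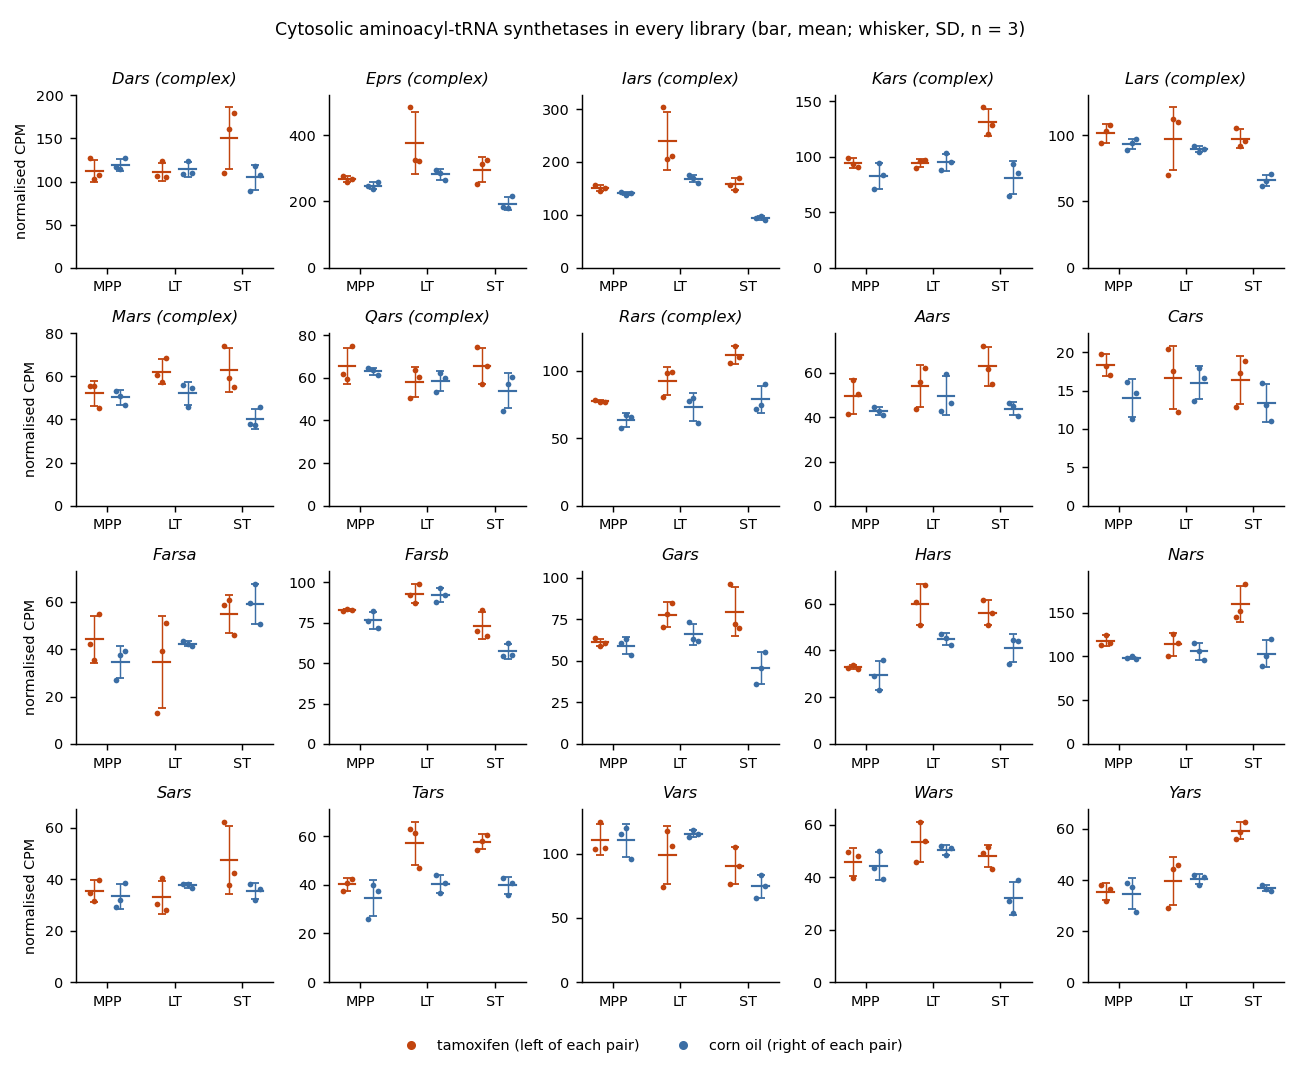
Normalised CPM (vertical axes) of the 20 cytosolic synthetases in each of the 18 libraries, with tamoxifen left of oil in each population; bars are means and whiskers SD of 3 libraries. In ST cells the tamoxifen points lay above all oil points for 14 of the 20 genes, and LT tamoxifen library A is the highest Iars and Eprs point.

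The 16 mitochondrial enzymes, which load transfer RNA for the proteins encoded by mitochondrial DNA, had log2 fold changes above 0 for 11 members in ST cells. Over all genes 7283 of 14419 lay above 0. Hars2, for histidine, had 27.2, 35.9 and 36.8 normalised CPM in ST tamoxifen and 26.8, 24.7 and 25.9 in ST oil (log2 fold change 0.34, adjusted p = 0.245). In the other direction, Cars2, for cysteine, had 22.7, 19.6 and 22.5 in ST tamoxifen and 25.2, 29.3 and 29.8 in ST oil (-0.36, adjusted p = 0.301). In both genes the groups did not overlap, and neither passed the test. Ears2, Fars2, Tars2 and Wars2, for glutamate, phenylalanine, threonine and tryptophan, had estimates of -0.17 (Tars2) to -0.0047 (Fars2), and Iars2, Mars2, Nars2, Rars2, Vars2 and Yars2 of 0.02 (Vars2) to 0.25 (Yars2). Aars2, Pars2 and Sars2 rested on 17 to 49 reads a library in ST cells, and the SE of their log2 fold changes was 0.34, 0.31 and 0.32. Over the 16 mitochondrial enzymes the SE ran from 0.17 (Iars2) to 0.34 (Aars2), against 0.13 to 0.15 in the complex enzymes, so a call was harder to reach. The difference between the cytosolic and the mitochondrial class was not tested.

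**Figure D2:**
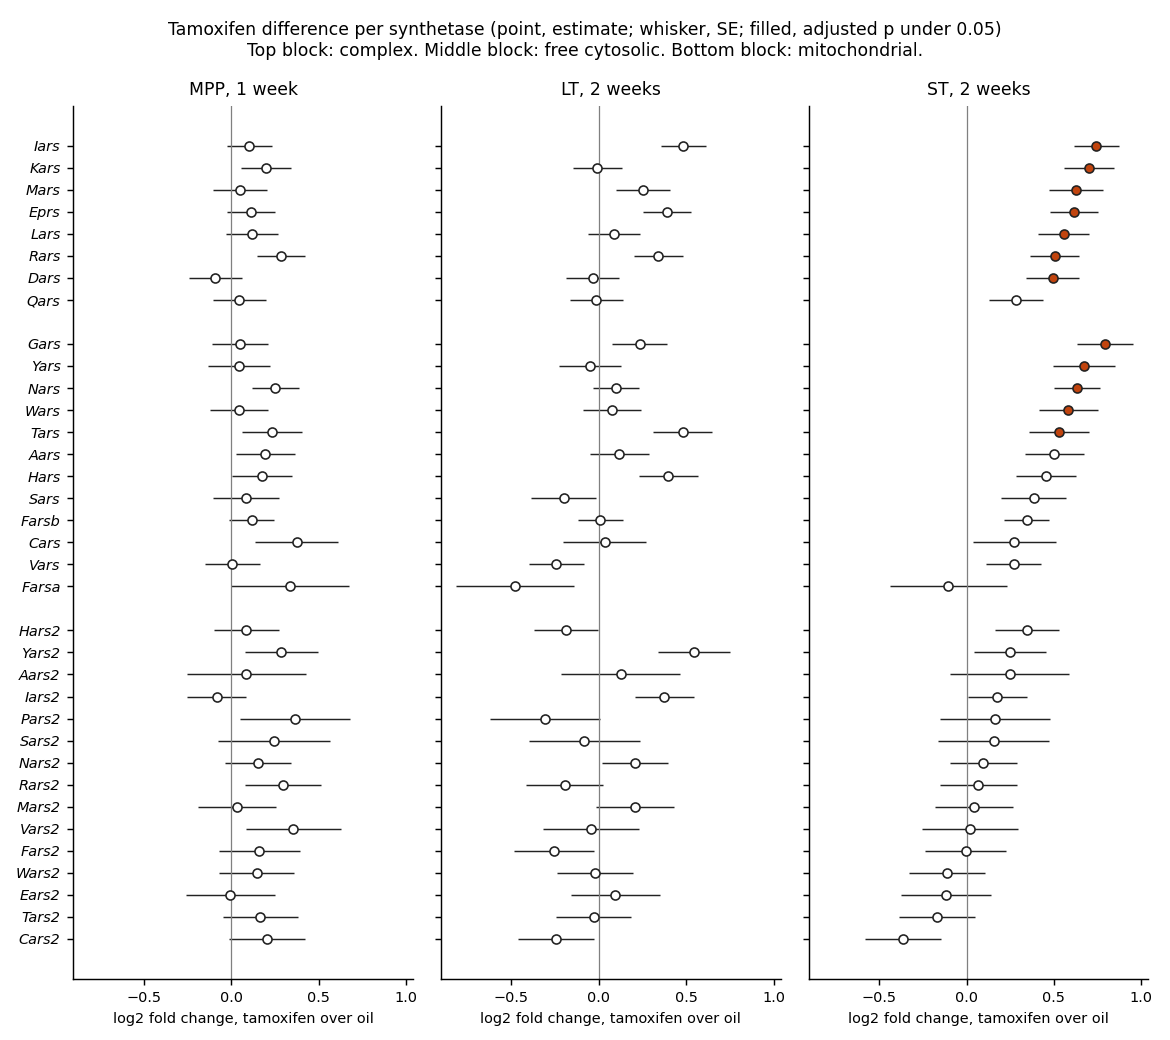
Log2 fold change of tamoxifen over oil (horizontal axes) with its SE for the cytosolic synthetases and the mitochondrial ones named here, in MPP, LT and ST cells; filled points passed an adjusted p of 0.05. Filled points occur in the ST panel, 7 in the complex block, 5 in the middle block and none in the mitochondrial block.

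Summed over its members, the complex reached 1024, 1067 and 1129 normalised CPM in the ST tamoxifen libraries, against 644, 724 and 766 in ST oil. The other cytosolic enzymes summed to 815, 809 and 795 in ST tamoxifen and to 550.3, 593 and 603 in ST oil. In neither class did the groups overlap. The mitochondrial sums did overlap, at 425, 404 and 440.1 in ST tamoxifen and 417, 397 and 365 in ST oil. In LT cells the complex sums were apart too, at 1071 to 1246 in LT tamoxifen and 895 to 958 in LT oil, while the other classes overlapped. Of the 1246, in LT tamoxifen library A, Eprs held 484 and Iars 303. The median log2 deviation of the complex genes from their mean over all libraries was -0.04 in that library. It was 0.19 and 0.26 in LT tamoxifen libraries B and C and -0.01 to 0.06 in LT oil, so by this median the groups overlapped. In MPPs the sums of all 3 classes were apart by less: the complex had 897 to 949.7 in MPP tamoxifen and 839 to 883 in MPP oil, the other cytosolic enzymes 658 to 684 in MPP tamoxifen and 592 to 639.6 in MPP oil, and the mitochondrial enzymes 356 to 372 in MPP tamoxifen and 326 to 345 in MPP oil. The complex medians overlapped in MPPs, at -0.0406 to 0.0491 in MPP tamoxifen and -0.0795 to -0.0363 in MPP oil. They were apart in ST cells, at 0.19 to 0.26 in ST tamoxifen and -0.50 to -0.18 in ST oil. The ST libraries put the cytosolic sum at 1838 to 1923 in ST tamoxifen, where LT oil libraries had 1577 to 1668 and ST oil libraries 1195 to 1369; ST tamoxifen was not tested against LT oil.

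**Figure D3:**
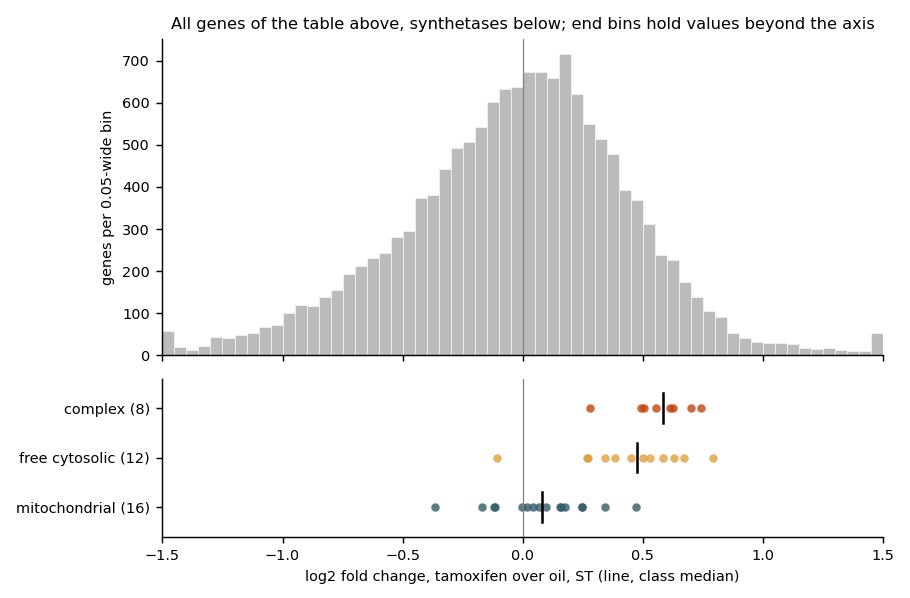
Distribution of the log2 fold change (tamoxifen over oil, ST) of all 14419 genes, as genes per bin, above the values of the 36 synthetases by class, with a line at each class median. The complex median of 0.58 and the free cytosolic median of 0.48 lie right of the centre of all genes, and the mitochondrial median of 0.08 lies near it.

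The count of 12 depended on scaling and on each ST library. After rescaling to the reads outside mitochondrially encoded genes and Lars2 it was 7 (Eprs, Gars, Iars, Kars, Mars, Nars and Yars), and without ST oil library A it was 6 (Eprs, Gars, Iars, Kars, Nars and Yars). It was 8 without ST tamoxifen library A, B or C, 9 without ST oil library B and 10 without ST oil library C. Over all genes the split of calls was 867 higher and 519 lower (62.6% higher), and it became 606 and 554 (52.2%) after quantile normalisation and 505 and 717 (41.3%) after that rescaling. Eprs, Gars, Iars, Kars and Nars were called in all 30 alternatives. Not all of these could move an ST result. Leaving out an MPP or LT library kept the ST fold changes and altered the estimated spread only. A filter among the alternatives kept all 14419 genes, so it repeated the main test. The ST tamoxifen libraries were also deeper, with 3611749 to 3982982 reads against 2728800 to 3267591 in ST oil. Of 15 erythroblast markers 5 rose, with summed levels of 932 to 1305 normalised CPM in ST tamoxifen and 631 to 842 in ST oil and none at 0 reads, and 8 multipotent progenitor markers summed to 3085 to 3472 in ST tamoxifen and 1956 to 2311 in ST oil with 0 higher and 1 lower. Mitochondrial ribosomal RNA took 19.3% to 24.4% of reads in ST tamoxifen and 18.3% to 21.9% in ST oil. Of 5 measured stromal and endothelial markers 1 rose, with sums of 130 to 133 in ST tamoxifen and 88.0 to 119.5 in ST oil. The part of depth, scaling or these cells in the synthetase result was not tested.

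Genes of the same pathways were read beside the family and against the 6.01% of all genes that rose and 3.6% that fell. Of 27 genes of the ATF4 response and amino acid supply, 6 rose in ST tamoxifen and none fell. Slc7a5, the light chain of the transporter of large neutral amino acids, had 59.1, 85.6 and 77.4 normalised CPM in ST tamoxifen and 29.5, 33.6 and 33.6 in ST oil (log2 fold change 1.16, adjusted p = 8.79e-05). Aldh18a1, which starts proline synthesis, had 50.9, 60.1 and 54.3 in ST tamoxifen and 27.8, 24.7 and 35.6 in ST oil (0.90, adjusted p = 0.000829). Psat1, of serine synthesis, had 178, 169 and 154 in ST tamoxifen and 98.6, 92.6 and 106 in ST oil (0.75, adjusted p = 0.000829). All 3 had groups that did not overlap. Of the 12 cytosolic synthetases that are known from other cells to answer to ATF4, 9 rose (median 0.60), and of the other 8 cytosolic synthetases 3 rose (median 0.40); the difference between these lists was not tested.

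Elongation factors rose in 3 of 11 cases, with Eif5a at 736, 709.5 and 795 normalised CPM in ST tamoxifen and 459, 448 and 513 in ST oil (0.66, adjusted p = 0.00105) and Eef2, which moves the ribosome along the message, at a log2 fold change of 0.65 (adjusted p = 0.00331). Gfm1, the mitochondrial counterpart, rose by 0.75 (adjusted p = 0.00746). Of 29 genes of transfer RNA synthesis, processing and export, 3 rose: Xpot, the nuclear exporter of transfer RNA (0.63, adjusted p = 0.00379), Elac2, which trims its 3′ end (0.78, adjusted p = 0.0133), and Polr3b, a subunit of RNA polymerase III (0.47, adjusted p = 0.0357). Of 24 genes of transfer RNA modification, 2 rose and 2 fell, a share near that over all genes, among them Pus7 (0.80, adjusted p = 0.00444), Nsun2 (0.58, adjusted p = 0.00631) and Cdkal1 (-0.69, adjusted p = 0.0148). Of 14 genes of amino acid sensing, Mtor rose (0.39, adjusted p = 0.0433, called in 10 of 30 alternatives) and Rptor, its partner, fell (-0.56, adjusted p = 0.00961). With 1 higher and 1 lower, that list too lay near the shares over all genes. DNA replication genes, taken as a list outside translation, rose in 7 of 20 cases, led by Mcm6 (0.64, adjusted p = 0.00169), Mcm2 (0.58, adjusted p = 0.00609) and Rrm1 (0.58, adjusted p = 0.00631). None of 4 genes of mitochondrial amidation and formylation (Gatc 0.28) and none of 6 synthetase-like or editing proteins (Tarsl2 0.51, adjusted p = 0.13) passed.

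In LT cells after 2 weeks, none of the 36 genes passed the same test, in which 0.416% of all genes did in either direction. An unadjusted p under 0.05 was reached by 7 of the 36 and by 13.5% of all genes. By edgeR the count was 0 and by DESeq2 it was 1, Iars. Over all genes 20 rose and 40 fell (33.3% higher), and after the rescaling 17 rose and 70 fell (19.5%). Groups did not overlap for 8 of the 36, all higher in LT tamoxifen, where 9.04% of all genes were apart and higher and 9.36% apart and lower. Iars came nearest in limma too, at 303, 205 and 211 normalised CPM in LT tamoxifen and 175, 170.0 and 161 in LT oil (log2 fold change 0.48, SE 0.13, adjusted p = 0.0825), so every tamoxifen library exceeded every oil library. Its estimate was 0.30 (adjusted p = 0.236) without library A, the library with the high share of mitochondrial ribosomal RNA, and it passed without library B. Eprs showed the same spread, with 484, 324 and 321 in LT tamoxifen and 296, 285 and 264 in LT oil (0.39, adjusted p = 0.177; 0.20 without library A).

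Other LT estimates also moved when library A was left out. Farsa had 13.2, 39.2 and 51.3 normalised CPM in LT tamoxifen and 43.5, 42.1 and 41.4 in LT oil, which gave -0.48 with library A and 0.08 without it. Iars2, the mitochondrial isoleucine enzyme, had 168, 91.4 and 91.3 in LT tamoxifen and 89.7, 95.7 and 74.5 in LT oil, which gave 0.37 with library A and 0.08 without it. The exons of Iars2 overlap those of Rab3gap2 on the other strand by 2034 bases. Tars and Rars kept estimates of similar size, at 0.48 and 0.34 with library A and 0.40 and 0.43 without it, and their groups did not overlap, with Tars at 62.9, 61.2 and 46.8 in LT tamoxifen and 44.1, 36.5 and 40.5 in LT oil. The median over the 36 genes was 0.02 with all libraries, 0.08 without library A and -0.04 after the rescaling. In the same LT comparison 3 of 8 multipotent progenitor markers fell, with sums of 127 to 253 in LT tamoxifen and 362 to 535 in LT oil. The 10 long-term stem cell markers were also lower in sum, at 2774 to 3009 in LT tamoxifen and 3642 to 3957 in LT oil, with 1 gene called lower. The part of either in the estimates was not tested.

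In MPPs after 1 week, none of the 36 genes passed, where 0.0555% of all genes did. None had an unadjusted p under 0.05, which 5.68% of all genes reached, and edgeR and DESeq2 also called 0. The estimates were small and mostly above 0, in 32 of the 36 genes, with a median of 0.13. Over all genes 7208 of 14419 lay above 0. The genes share the same libraries, so this count is no test. Rars had 78.5, 77.0 and 76.9 normalised CPM in MPP tamoxifen and 57.7, 67.5 and 65.6 in MPP oil (log2 fold change 0.28, adjusted p = 0.877). Nars had 113, 125 and 115 in MPP tamoxifen and 98.2, 100.1 and 97.6 in MPP oil (0.25, adjusted p = 0.909). In both genes every tamoxifen value exceeded every oil value, which held for 8 of the 36 genes and for 7.66% of all genes. Iars, the leading gene in ST cells, had 156, 145 and 151 in MPP tamoxifen and 143, 136 and 142 in MPP oil (0.10). Of 15 erythroblast markers 2 rose in MPPs, where 5 of all 14419 genes rose. Those 15 markers summed to 385 to 1111 normalised CPM in MPP tamoxifen and 402 to 511 in MPP oil. Their median log2 fold change was 0.87 in MPPs, 0.72 in ST cells and 0.30 in LT cells, with 0 called in LT cells. The part of these cells in the MPP estimates was not tested.

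**Figure D4:**
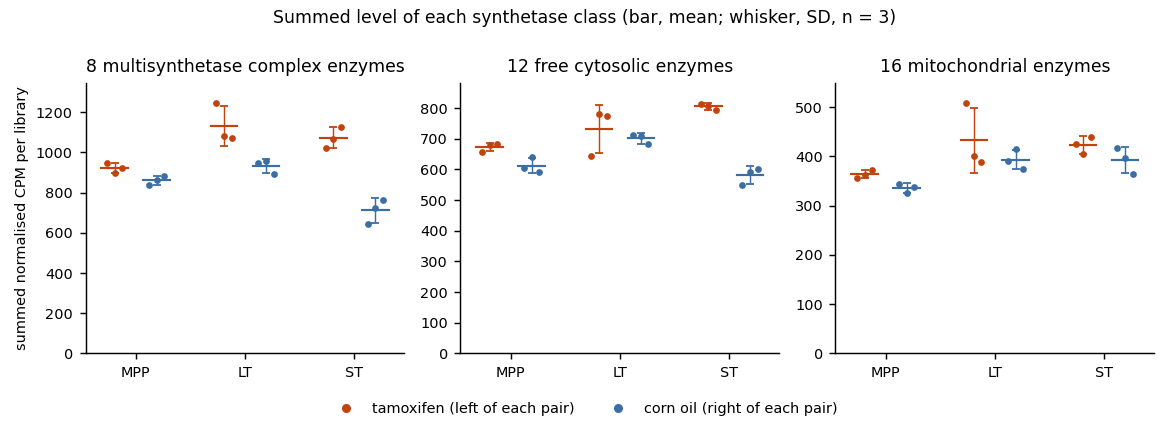
Summed normalised CPM (vertical axes) of the complex, free cytosolic and mitochondrial synthetases in each library, tamoxifen left of oil; bars are means and whiskers SD of 3 libraries. The ST tamoxifen sums of the complex, 1024 to 1129, stand clear of the ST oil sums, 644 to 766, and the mitochondrial sums of the 2 ST groups overlap.

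Averaged over the 3 populations with equal weight, 9 of the 36 genes rose with tamoxifen and none fell, where 5.47% of all genes rose and 3.41% fell. They were Iars, Eprs, Rars, Kars and Mars of the complex and Nars, Tars, Gars and Hars outside it. The mean log2 fold change was 0.44 in Iars (SE 0.07, adjusted p = 0.00062), 0.38 in Rars (adjusted p = 0.00377), 0.37 in Eprs (adjusted p = 0.00367) and 0.41 in Tars (adjusted p = 0.00802). Hars, which had no call in any single population, passed on the mean with 0.34 (adjusted p = 0.0289). Its values were 60.5, 50.6 and 68.1 in LT tamoxifen and 47.2, 45.1 and 42.2 in LT oil, and 61.5, 51.0 and 55.9 in ST tamoxifen and 34.1, 44.6 and 44.1 in ST oil. The exons of Hars overlap those of Hars2 on the other strand by 195 bases. The ST libraries enter this mean, which is no separate evidence for the ST calls. The split of all calls was 61.6% higher, and it was 48.6% after quantile normalisation and 39.8% after the rescaling, where 7 and 6 synthetases rose.

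Whether the tamoxifen difference itself varied between populations was tested directly, and no synthetase passed. The counts were 0 of 36 for ST minus LT, for ST minus MPP and for LT minus MPP, where 0.0555%, 0.00694% and 0% of all genes passed. Unadjusted p-values under 0.05 were reached by 10, 10 and 1 of the 36, and by 12.9%, 12.1% and 5.6% of all genes. By edgeR all 3 counts were 0, and by DESeq2 they were 0, 1 (Iars) and 0. The ST estimate exceeded the LT estimate in all 20 cytosolic genes, or in 19 without LT tamoxifen library A, where Farsa turned to -0.19. It did so in 8 of the 16 mitochondrial genes and in 7693 of all 14419 genes. The genes share the same libraries, so these counts are no test. The excess was 0.71 in Kars (SE 0.20, adjusted p = 0.128), 0.72 in Yars (SE 0.25, adjusted p = 0.207) and 0.53 in Nars (SE 0.19, adjusted p = 0.22). Without LT tamoxifen library A the value for Kars was 0.68 (adjusted p = 0.0904). Against MPPs, Iars differed by 0.64 (SE 0.18, adjusted p = 0.183) and Gars by 0.74 (SE 0.22, adjusted p = 0.201). The calls in ST cells are thus not shown to be absent from LT cells or MPPs.

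The populations themselves differed in oil, and the same ST oil libraries serve in ST against LT, in MPP against ST and in every tamoxifen comparison that includes ST cells. The sample titles number the ST libraries apart from the others, and a difference in preparation and a difference between populations cannot be told apart. LT and ST titles share the letters A to C, and whether a letter marks the same mice is not stated. In ST oil against LT oil, 7 of the 36 genes were lower and none higher, where 16% of all genes were lower and 12.5% higher. The lower count lay near the share over all genes. All 7 were cytosolic. In the same comparison 8 of 15 erythroblast markers were lower, with sums of 631 to 842 normalised CPM in ST oil and 2149 to 2664 in LT oil, and 5 of 10 neutrophil markers were higher, with sums of 135 to 317 in ST oil and 42.1 to 93.4 in LT oil. Of 8 macrophage and monocyte markers 3 were higher and 1 lower, with sums of 523 to 731 in ST oil and 256 to 291.5 in LT oil. Of 5 T and NK cell markers 1 was higher, with sums of 115 to 134 in ST oil and 28.1 to 52.6 in LT oil. Of 5 stromal and endothelial markers 1 was lower. None of these markers was at 0 reads throughout a group, and the part of these cells in the synthetase differences was not tested. Iars had 93.0, 97.6 and 90.7 normalised CPM in ST oil and 175, 170.0 and 161 in LT oil (log2 fold change -0.84, SE 0.13, adjusted p = 2.04e-05). Farsb had 54.1, 62.5 and 55.3 in ST oil and 88.1, 96.5 and 92.1 in LT oil (-0.68, adjusted p = 0.000229). Vars had 65.7, 83.3 and 75.2 in ST oil and 113, 119 and 115 in LT oil (-0.63, adjusted p = 0.0033). In all 3 the ranges were far apart.

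Wars, Eprs, Gars and Lars completed the 7, at -0.66, -0.55, -0.54 and -0.44 (adjusted p = 0.00376, 0.0033, 0.0112 and 0.0251). Set side by side with ST tamoxifen against ST oil, which shares the ST oil libraries, the log2 fold changes were -0.84 and 0.74 for Iars, -0.66 and 0.58 for Wars, and -0.68 and 0.34 for Farsb. Because the ST oil values enter both with opposite sign, the pairs are given as values only. Kars, Nars, Yars, Rars and Dars had no call in ST oil against LT oil. Kars, for example, had 64.3, 93.3 and 85.2 in ST oil and 87.6, 103 and 94.8 in LT oil, which overlap. Slc7a5 was lower in ST oil too, at 29.5, 33.6 and 33.6 normalised CPM, against 90.1, 75.0 and 72.0 in LT oil (-1.26, adjusted p = 7.04e-07). Of the 16 mitochondrial enzymes none passed the test, with estimates from -0.35 to 0.34 and a median of 0.01.

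MPP oil against ST oil gave 6 genes higher (Iars, Vars, Lars, Farsb, Wars and Eprs) and 3 lower (Rars2, Nars2 and Hars), where 16.8% of all genes were higher and 13.9% lower. The higher count lay near the share over all genes and the lower count under it, so neither sets the family apart. Iars had 143, 136 and 142 normalised CPM in MPP oil and 93.0, 97.6 and 90.7 in ST oil (log2 fold change 0.58, adjusted p = 0.00115). Rars2, the mitochondrial arginine enzyme, had 19.1, 18.5 and 20.2 in MPP oil and 26.2, 38.6 and 35.3 in ST oil (-0.75, adjusted p = 0.0103), and Nars2, for asparagine, had 20.9, 21.3 and 19.9 in MPP oil and 41.0, 28.3 and 24.8 in ST oil (-0.54, adjusted p = 0.0298). No other mitochondrial synthetase of the 36 passed limma in this comparison. The 9 calls became 4 without MPP oil library 2 and 5 without MPP oil library 1, ST oil library A or ST oil library B. The median of all genes was -0.05, and -0.14 after the rescaling, under which 3 synthetases were higher and 6 lower; calls over all genes were 54.7% higher, and 43.3% after the rescaling.

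MPP oil against LT oil gave 1 call, Hars, which was lower, where 7.76% of all genes were higher and 7.01% lower. Hars had 29.1, 23.1 and 35.8 normalised CPM in MPP oil and 47.2, 45.1 and 42.2 in LT oil, a log2 fold change of -0.62 (SE 0.17, adjusted p = 0.0123). The call was lost without MPP oil library 2 or LT oil library A, and Wars2 joined it without LT tamoxifen library A. Iars had 143, 136 and 142 in MPP oil and 175, 170.0 and 161 in LT oil (-0.26, adjusted p = 0.203). The order of Iars in oil was thus LT, MPP and ST from high to low, with no overlap between the 3 groups and a tested difference for ST against each of the others. After the rescaling the median of all genes was -0.10, 40.4% of their calls were higher in place of 52.5%, and the synthetase count was 3, all lower.

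Lars2 was read apart, beside the 2 mitochondrial ribosomal RNA rows. It held 13026, 13265 and 14280 normalised CPM in MPP tamoxifen and 16726, 15210 and 11320 in MPP oil. In LT cells it held 3396, 8568 and 10931 in tamoxifen libraries A, B and C and 12912, 12438 and 12758 in oil. In ST cells it held 2325, 6886 and 5950 with tamoxifen and 3502, 4804 and 6068 in oil. Every LT tamoxifen value lay under every LT oil value. The lowest value of both the LT and the ST tamoxifen group was that of library A, which in each had the highest mt-Rnr2 value. No tamoxifen comparison passed (LT: log2 fold change -0.90, adjusted p = 0.406, and -0.39 without library A).

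In oil, Lars2 was lower in ST than in LT cells (-1.44, SE 0.44, adjusted p = 0.0265) and higher in MPPs than in ST cells (1.61, adjusted p = 0.0146). Quantile normalisation ended both calls (-1.18 and 1.18, adjusted p = 0.15 and 0.155). The ST against LT call was also lost when LT oil library A, B or C or ST oil library A or B was left out (adjusted p = 0.0614 to 0.0968), and the MPP against ST call without MPP oil library 1 (adjusted p = 0.0516) or ST oil library A (adjusted p = 0.0581). The mitochondrial ribosomal RNA rows had no call in ST against LT oil, with 0.41 for mt-Rnr1 (adjusted p = 0.115) and 0.09 for mt-Rnr2 (adjusted p = 0.716). mt-Rnr2 had 194827, 176348 and 153329 normalised CPM in ST tamoxifen and 122798, 165946 and 159155 in ST oil, and 220162, 129526 and 141640 in LT tamoxifen and 144265, 136816 and 136538 in LT oil. Its highest value, in LT tamoxifen library A, stood beside the lowest Lars2 value of the LT libraries. Among 9 Lars2 transcripts of GENCODE M21, the longest run of bases shared with mt-Rnr2 was 12, and with mt-Rnr1 14. The sources used here do not name the annotation on which these reads were counted, and what share of the Lars2 row came from ribosomal RNA was not tested.

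**Figure D5:**
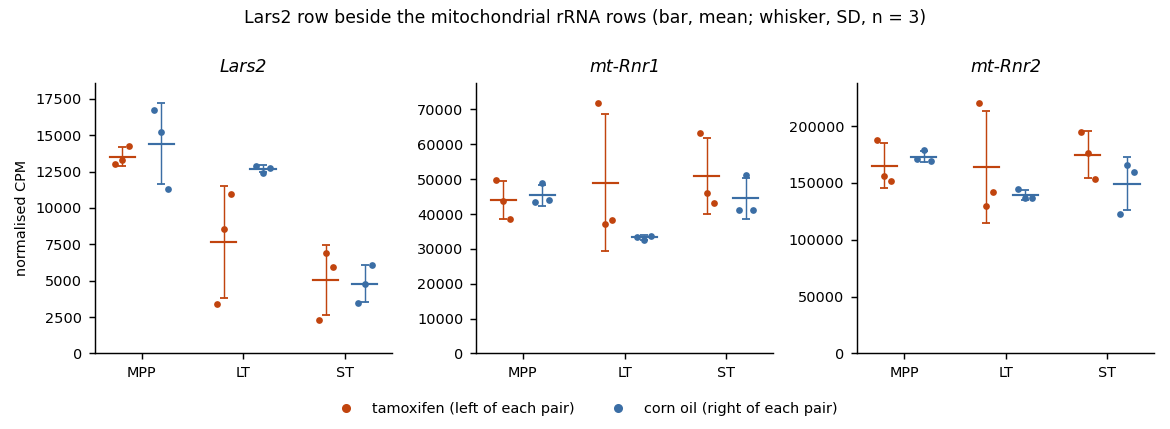
Normalised CPM (vertical axes) of the Lars2, mt-Rnr1 and mt-Rnr2 rows in each library, tamoxifen left of oil; bars are means and whiskers SD of 3 libraries. Lars2 ran from 2325 to 16726 and was lowest in ST cells and in LT tamoxifen library A, whereas mt-Rnr1 and mt-Rnr2 peaked in that library at 71820 and 220162.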

How the data were processed

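RNA of 18 libraries was analysed from the table of 14419 genes that the authors deposited. Per the submitters' processing notes, Picard, cutadapt, RSEM 1.17 and limma were used on build NCBIM37; the sources used here do not state the annotation, the strand setting or the scaling. The deposited values are a normalised signal: each equals a whole number of reads plus 0.5, times 1 constant per library (100% whole within 0.001 read), and is called normalised CPM. No columns were left out.

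Tests used limma 3.58.1 in R 4.3.3 on log2(value + 1), with trend and robust variances, in 1 fit of all 18 libraries with 12 residual degrees of freedom and Benjamini-Hochberg adjustment over all genes at 0.05. Fold changes on this scale understate changes of low genes. The test was checked on simulated data. The alternatives comprised edgeR 4.0.16 and DESeq2 1.42.0 on the recovered reads, other pseudocounts (0.5 and 5), filters and scalings, and each library left out; the depth of 2728800 to 5279821 reads limits genes of low level. The limma p-values rest on the spread between libraries within groups, pooled over the 6 groups and moderated across genes. They do not measure the spread of the compared groups alone, and whether that spread is between single mice is not stated.

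The members and all lists were chosen with earlier results of these data known. The members are named, except 1 that is counted in its class and not reported here; from each pathway list the text names the 3 genes with the smallest p past the threshold in ST cells, or 1 where none passed. Promoters came from RefSeq (GRCm38.p6) and overlaps from GENCODE M21.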

Additional observations from a re-analysis of the deposited data

How the results depend on the processing

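Each of the 10 synthetase counts was recomputed under 30 alternatives, 18 of which left out 1 library. Where that library lay outside the compared groups, the fold changes stayed as they were and only the estimated spread changed. In ST cells the count of 12 was 6 to 13 with 1 library left out, 7 after rescaling without mitochondrially encoded genes and Lars2, 8 after quantile normalisation, 11 by edgeR and 12 by DESeq2; no alternative called a mitochondrial synthetase there. The class median of the mitochondrial enzymes in ST cells ran from -0.01 to 0.15, that of the complex from 0.44 to 0.65. In LT cells the count of 0 became 1 by DESeq2 and 0 to 1 with 1 library left out. For ST minus MPP it became 1 by DESeq2, 1 with library weights and 0 to 1 with 1 library left out, in each case Iars. For the mean over populations it was 6 to 12 with 1 library left out. In MPP against LT the count of 1 became 3 after quantile normalisation, 3 after the rescaling, 4 with library weights and 4 in a fit of the compared groups alone, and 0 to 2 with 1 library left out. In MPP against ST the count of 9 was 4 to 12 with 1 library left out. ST against LT gave 5 to 8. Where a lower count came with fewer libraries, 1 group held 2 libraries; for the scalings and weights the cause was not tested. No named gene with a call changed direction. The replicate block (library number or letter within a population) gave 11 calls in ST cells and 9 on the mean. Its terms lie within populations and take up the differences between them, so it gives no value for populations compared in oil. Deviations of libraries from their group means were correlated for libraries of the same number or letter. Between oil and tamoxifen of a population the values were -0.03 to 0.13. Between ST and LT libraries they were 0.05 to 0.10 in oil and 0.08 to 0.14 in tamoxifen. Libraries of unlike label were not compared, so these values cannot decide whether the labels mark pairs. The main test took all libraries as independent, also where LT and ST titles share a letter.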
